A study of Mus musculus with 22 samples.

Results

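The genes described here encode the TGF-beta ligands (Tgfb1, Tgfb2, Tgfb3), their receptors (Tgfbr1, Tgfbr2, Tgfbr3) and the latent TGF-beta binding proteins (Ltbp1, Ltbp2, Ltbp3, Ltbp4). They were listed by name, and each was read from the array probe annotated to that gene alone with the highest mean over all 22 samples. All 10 listed genes were measured, of 12393 genes in all, through 17 probes (3 each for Tgfb2, Tgfbr1 and Tgfbr2, 2 for Ltbp3, 1 for the other 6). The samples were trunk subcutaneous loose connective tissue from male mice of strain C57BL/6 with a weight of 19 to 24 g. The 4 groups were stretched and shortened pieces held ex vivo (4 animals) and stretched and shortened pieces held in vivo (7 animals). Each animal gave 1 stretched and 1 shortened piece, allotted at random, so all groups share strain, sex and tissue and the replicates are animals. The labels give no age, stretching force, duration or culture medium, and RNA came from whole tissue although the series title speaks of fibroblasts.

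TGF-beta is made as a precursor whose cut propeptide stays bound to the growth factor and keeps it latent. Latent TGF-beta binding proteins link this complex to fibrillin and fibronectin in the matrix, and integrins, proteases or thrombospondin release the active ligand, integrins in part by pulling. Active ligand brings the type II receptor to the type I receptor, which phosphorylates SMAD2 and SMAD3, and in connective tissue the pathway is best known for driving fibroblasts to make matrix and to become myofibroblasts.

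The promoters of 3 members are shown, Tgfb2 with lower and Tgfb1 and Ltbp1 with higher signal ex vivo. After centring each array on its median, their groups did not overlap between the settings. That was also so for Tgfbr1 and Ltbp2, whose promoters are not shown. On deposited values the groups of Tgfb1 overlapped in both tissues and those of Ltbp1 in shortened tissue. RefSeq promoter sequences (build GRCm38.p6, 250 bases before to 50 after a transcript's start) were at hand for 8 of the 10 members. Capitals mark matches to chosen short motifs, not every motif searched.
Tgfb2, chr1:186705940-186706239, minus strand: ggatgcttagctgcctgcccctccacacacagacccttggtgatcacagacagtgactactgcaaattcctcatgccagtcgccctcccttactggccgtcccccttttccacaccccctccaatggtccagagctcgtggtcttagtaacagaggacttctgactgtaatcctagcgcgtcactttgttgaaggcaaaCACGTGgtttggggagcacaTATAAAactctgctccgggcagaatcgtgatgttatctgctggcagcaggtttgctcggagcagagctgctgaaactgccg
Tgfb1, chr7:25686752-25687051, plus strand: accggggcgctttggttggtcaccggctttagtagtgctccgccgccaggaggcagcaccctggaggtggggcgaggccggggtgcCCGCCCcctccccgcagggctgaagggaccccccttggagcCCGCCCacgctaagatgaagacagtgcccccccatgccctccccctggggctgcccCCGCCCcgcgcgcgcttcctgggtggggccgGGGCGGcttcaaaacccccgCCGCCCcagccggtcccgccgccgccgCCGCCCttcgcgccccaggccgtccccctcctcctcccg
Ltbp1, chr17:75005279-75005578, plus strand: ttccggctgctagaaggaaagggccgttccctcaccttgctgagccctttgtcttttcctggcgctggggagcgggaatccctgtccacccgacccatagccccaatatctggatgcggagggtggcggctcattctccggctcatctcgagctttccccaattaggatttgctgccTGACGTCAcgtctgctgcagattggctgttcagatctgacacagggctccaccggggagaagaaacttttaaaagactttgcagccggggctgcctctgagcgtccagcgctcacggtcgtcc

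The starts used for Tgfb2 and Ltbp1 lie inside the intervals of these genes. Another Ltbp1 promoter (chr17:75178531-75178830), not shown, held no match to TGACGTCA. In Tgfb2 the capitals mark the TATA box letters TATAAA and the E-box CACGTG, in which the letters ACGTG (the core to which HIF factors bind) lie on both strands. In Tgfb1 they mark 6 copies of the SP1 box, GGGCGG or its reverse complement. In Ltbp1 they mark the cyclic AMP response element TGACGTCA, whose last bases overlap a reverse match to ACGTG that is not in capitals. Matches to the SMAD box CAGAC or its reverse complement, of which the Tgfb2 sequence holds 2 and the Ltbp1 sequence 1, are in lower case. All motifs were searched on both strands. The letters TATAAA occur in 13.6% of the 32851 promoters of the same length, ACGTG in 19.6%, GGGCGG in 35.7% and TGACGTCA in 1.79%. Among the 8 members with a promoter, TATAAA was found in 1 (Tgfb2), TGACGTCA in 1 (Ltbp1), ACGTG in 3 and GGGCGG in 4. The AP-1 motif TGANTCA was found in 1 (Ltbp3) and the SMAD box CAGAC in 6, and they occur in 7.81% and 49.6% of all promoters. A member with several promoters counted if any of them matched, while the percentages are shares of single promoters. The member counts and the percentages thus differ in unit and cannot be set against each other. These matches describe letters only.

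Values are log2 signals of 22626 probes, and they ran from 1.89 to 14.38. Array medians were 6.854 to 6.904 ex vivo and 7.28 to 7.41 in vivo, and the median probe was lower ex vivo by 0.38 (a difference of -0.38) in both tissues, so ex vivo and in vivo tissue were compared on signals relative to each array's median. A difference on the deposited values is lower by the gap of the array medians. Setting and array batch cannot be told apart. Fibroblast markers averaged 9.81 to 10.3 ex vivo and 11.6 to 12.1 in vivo (10 genes), and skeletal muscle markers 5.15 to 12.2 ex vivo and 4.91 to 12.9 in vivo (10 genes), so some pieces held much muscle RNA, while the fibroblast mean lay above the array medians in every sample. The 3′ to 5′ difference of Gapdh control probes, which grows as RNA is degraded, was 0.05 to 0.91 ex vivo and 0.11 to 3.61 in vivo. In whole tissue, fewer cells of a type and less RNA per cell cannot be told apart.

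Tissue held ex vivo differed from tissue in vivo in the makeup of the family. Tgfb2 and Tgfb3 fell, Tgfb1, Tgfbr1, Ltbp1 and Ltbp2 rose, and Ltbp3 fell, in stretched and in shortened tissue alike. Tgfbr2 fell in shortened tissue and Ltbp4 in stretched tissue. In each tissue 8 of 10 members passed the threshold (limma over all probes, Benjamini-Hochberg adjusted p under 0.05), 4 higher and 4 lower. Over all probes 63.5% passed in stretched tissue (35.1% higher, 28.4% lower) and 66.5% in shortened tissue (36.9% higher, 29.6% lower), so a share of called members near that of the background is not a result about the family. The median difference of the 10 members was 0.02 in stretched and -0.28 in shortened tissue, against -0.02 and -0.01 over all 12393 genes. Of all calls 55.3% were higher in stretched and 55.5% in shortened tissue with centred arrays, but 23.3% and 23.8% on deposited values, where 8 members (3 higher, 5 lower) and 6 members (1 higher, 5 lower) passed. Without the animals whose 2 pieces differed most in muscle (numbers 5 and 6 in vivo, 3 and 4 ex vivo), which leaves fewer samples (ex vivo animals 1 and 2), 6 members passed in each tissue. These animals were picked by the gap within pairs. In shortened tissue this left out muscle-poor in vivo pieces (list means 6.79 and 5.36) and kept muscle-rich ones (11.2, 12.2 and 9.96, animals 3, 4 and 7). The lost calls thus cannot show a dependence on muscle. With muscle content as a covariate 8 members passed in each tissue, 4 higher and 4 lower. Muscle markers were lower ex vivo in 10 of 10 genes in both tissues (medians -1.25 and -1.54), none past the threshold.

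**Figure D1:**
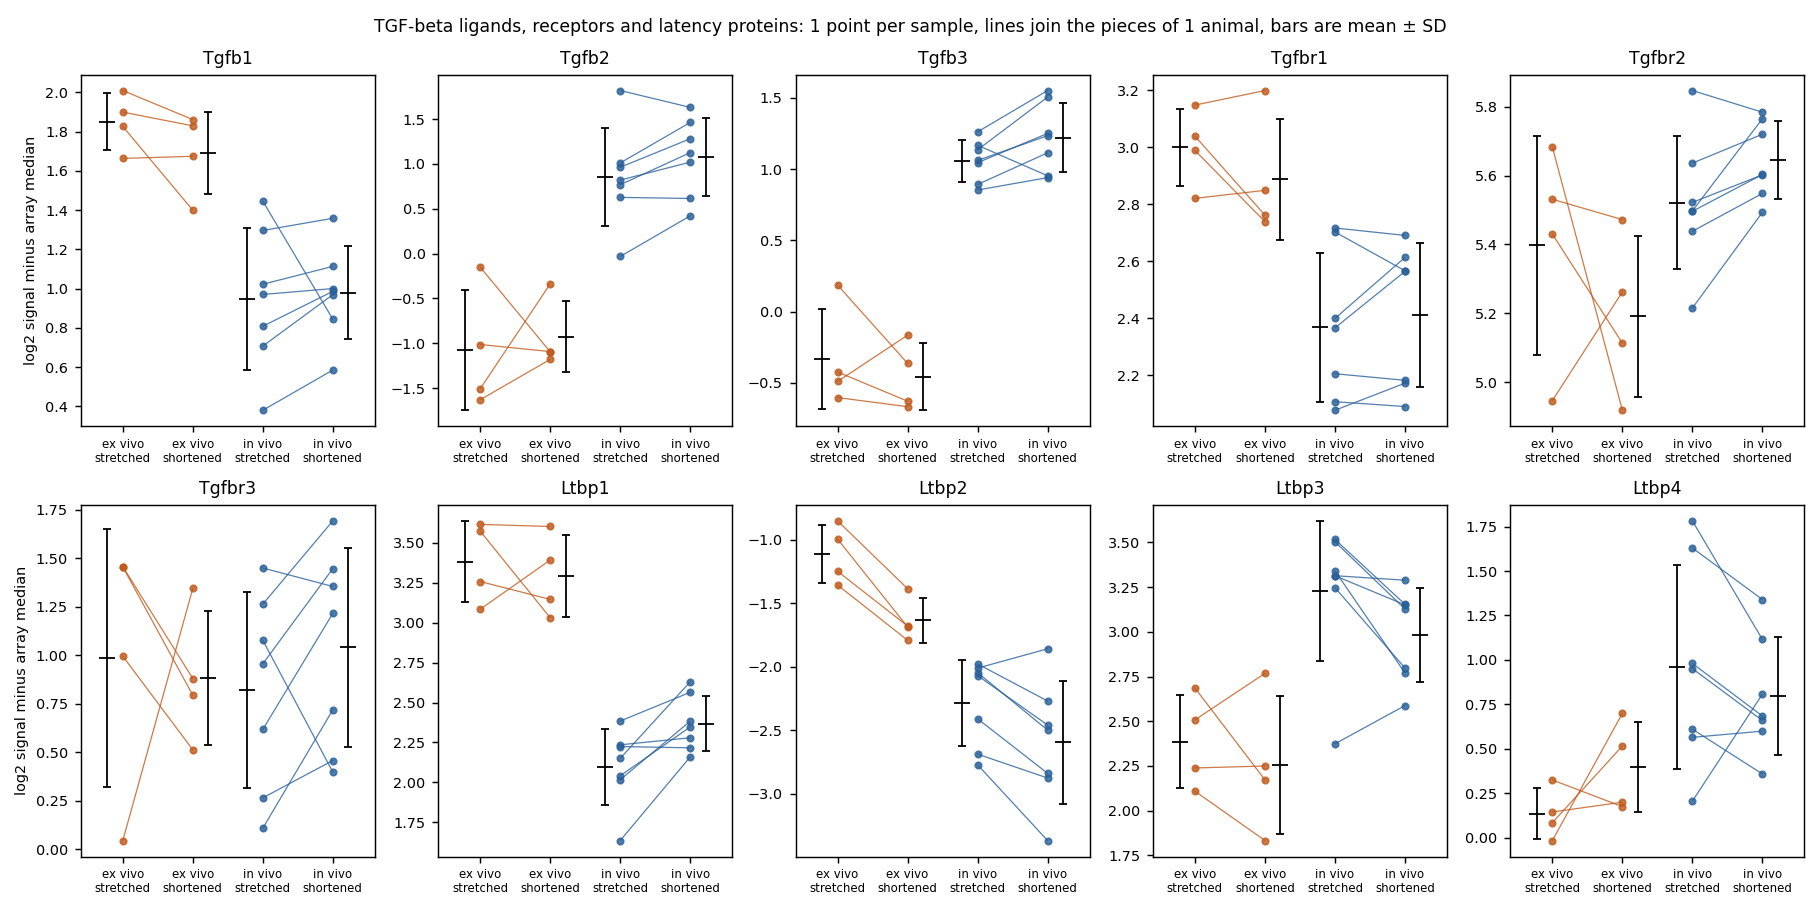
Signal of the 10 genes in every sample, as log2 signal minus the array median (y axis), by group (x axis), with lines joining the 2 pieces of an animal and bars for mean ± SD (n = 4 animals ex vivo, orange, and n = 7 in vivo, blue). Tgfb2 and Tgfb3 lie lower ex vivo and Ltbp1 and Ltbp2 higher with no overlap in either tissue, and Ltbp2 is higher in the stretched piece in 4 of 4 ex vivo pairs.

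Tgfb2, the ligand with a large role in development of heart, eye and skeleton, showed the largest difference among the members. In stretched tissue its median-centred log2 signal was -1.01, -1.63, -1.51 and -0.15 in the ex vivo samples, against -0.03 to 1.82 with a median of 0.82 in vivo. Shortened tissue had -1.09, -1.18, -0.34 and -1.10 ex vivo, against 0.42 to 1.63 with a median of 1.13 in vivo. All ex vivo samples lay below all in vivo samples, in stretched tissue by a narrow gap between ex vivo animal 4 and in vivo animal 3. Tgfb2 fell by 1.93 ± 0.33 in stretched (SE, fold 0.263, limma adjusted p = 0.000206) and fell by 2.01 ± 0.24 in shortened tissue (fold 0.249, adjusted p = 7.98e-06). Its other 2 probes differed by -1.94 and -2.39 in stretched and by -2.11 and -2.55 in shortened tissue, so all 3 probes went the same way.

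Tgfb3, the ligand needed for closure of the palate, behaved like Tgfb2 between the settings. In stretched tissue its centred signal was 0.19, -0.60, -0.49 and -0.42 ex vivo, against 0.85 to 1.26 with a median of 1.06 in vivo. Shortened tissue gave -0.36, -0.67, -0.17 and -0.63 ex vivo, against 0.94 to 1.55 with a median of 1.23 in vivo. The groups did not overlap in either tissue, and ex vivo animal 1 was the highest of the stretched ex vivo pieces. Tgfb3 fell by 1.39 ± 0.15 in stretched (fold 0.381, limma adjusted p = 4.23e-06) and fell by 1.68 ± 0.15 in shortened tissue (fold 0.313, adjusted p = 5.2e-07).

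Tgfb1, the most widely expressed ligand and the one tied to fibrosis and immune control, went the other way. In stretched tissue its centred signal was 2.01, 1.899, 1.83 and 1.66 ex vivo, against 0.38 to 1.45 with a median of 0.97 in vivo. Its values in shortened tissue were 1.86, 1.83, 1.40 and 1.67 ex vivo, against 0.59 to 1.36 with a median of 0.99 in vivo. The ex vivo samples were all higher, in shortened tissue by little in animal 3. Tgfb1 rose by 0.90 ± 0.18 in stretched (fold 1.87, limma adjusted p = 0.000695) and by 0.71 ± 0.14 in shortened tissue (fold 1.64, adjusted p = 0.000551). On deposited values the difference in shortened tissue was 0.25 and did not pass (adjusted p = 0.153), while that in stretched tissue was 0.46 (adjusted p = 0.0436). On that scale the groups overlapped in both tissues.

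Between the settings, then, the 3 ligands did not move together: the levels of Tgfb1 were highest in the ex vivo groups and those of Tgfb2 and Tgfb3 in the in vivo groups. Within each setting the stretched and shortened groups of every ligand overlapped. Macrophage markers moved with these differences, with 7 of 8 past the threshold as lower ex vivo in stretched and in shortened tissue and medians of -2.97 and -2.66. The eighth, Cd68, rose in stretched tissue (0.52 ± 0.20, limma adjusted p = 0.0338) and differed by 0.27 ± 0.15 in shortened tissue. The macrophage list mean was 7.93 to 9.38 ex vivo and 11.542 to 12.003 in vivo. Fibroblast markers fell in 9 of 10 genes and rose in 1 in both tissues, with medians of -1.07 and -1.61, and adipocyte markers fell in 4 of 6, with medians of -2.40 and -1.93. Endothelial markers rose in 2 of 8 genes in stretched and 4 of 8 in shortened tissue and fell in 1 in each, with Pecam1 at 0.56 ± 0.33 and 0.88 ± 0.24. Mast cell markers fell in 4 of 6 genes and rose in 1 in both tissues (medians -0.95 and -0.56). Past the threshold in stretched and shortened tissue were 60% and 80% of 5 platelet markers and 60% in both of 5 neutrophil markers. Of 6 keratinocyte markers 50% and 66.7% passed, of 7 pericyte and smooth muscle markers 14.3% and 28.6%, and of 4 Schwann cell markers 25% and 0%. Over all genes 64.5% and 67.4% passed. The part of these cell types in the differences was not tested. The fibroblast gene Pdgfra, a receptor for platelet-derived growth factor, rose against its list, by 0.71 ± 0.16 in stretched and 0.44 ± 0.14 in shortened tissue (limma adjusted p = 0.00177 and 0.0167), but was 0.27 and -0.03 on deposited values.

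**Figure D2:**
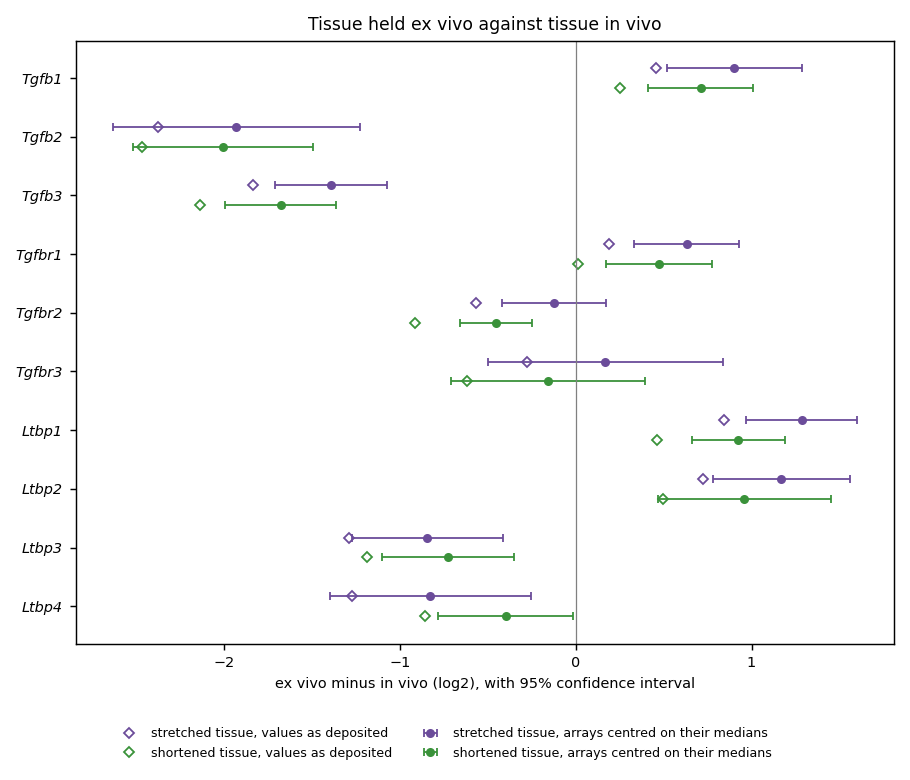
Ex vivo minus in vivo difference (x axis, log2) of each gene (y axis) in stretched and shortened tissue, with filled points and 95% confidence intervals from centred arrays and open diamonds from the deposited values (ex vivo 4 and in vivo 7 samples per tissue). The diamonds lie left of the points throughout. Those of Tgfb2, Tgfb3, Tgfbr2, Tgfbr3, Ltbp3 and Ltbp4 lie below 0 in both tissues. Those of Tgfb1, Tgfbr1, Ltbp1 and Ltbp2 lie above 0 in both, that of Tgfbr1 in shortened tissue barely (0.014).

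Among the receptors Tgfbr1, the type I receptor kinase that phosphorylates SMAD2 and SMAD3, rose. In stretched tissue its centred signal was 2.99, 3.04, 2.82 and 3.15 ex vivo, against 2.08 to 2.72 with a median of 2.37 in vivo. In shortened tissue it was 2.74, 2.76, 2.85 and 3.20 ex vivo, against 2.09 to 2.69 with a median of 2.57 in vivo. The groups did not overlap, but in shortened tissue ex vivo animal 1 and the highest in vivo sample nearly met. The rise was 0.63 ± 0.14 in stretched (fold 1.55, limma adjusted p = 0.00146) and 0.48 ± 0.14 in shortened tissue (fold 1.39, adjusted p = 0.00889). On deposited values it was 0.19 (adjusted p = 0.196) and 0.01 (adjusted p = 0.925) and the groups overlapped, so this call rests on the centring. Without the animals whose pieces differed most in muscle, the difference in shortened tissue was 0.41 and did not pass (adjusted p = 0.0978). It did pass with muscle content as a covariate on all samples. The other 2 probes of Tgfbr1 differed by 0.85 and 1.13 in stretched and by 0.50 and 1.16 in shortened tissue.

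Tgfbr2, the type II receptor that binds the ligand and activates Tgfbr1, fell in shortened tissue. Its centred signal there was 5.47, 4.92, 5.11 and 5.26 ex vivo, against 5.49 to 5.78 with a median of 5.60 in vivo. In stretched tissue it was 5.53, 5.68, 5.43 and 4.95 ex vivo, against 5.22 to 5.85 with a median of 5.50 in vivo. The groups were apart in shortened tissue by a small step at animal 1, and overlapped in stretched tissue. The difference was -0.12 ± 0.14 in stretched (limma adjusted p = 0.446) and -0.45 ± 0.10 in shortened tissue (fold 0.730, adjusted p = 0.000979). On deposited values the groups did not overlap in stretched tissue either, and the difference there was -0.57 and passed (limma adjusted p = 0.00183). The other 2 probes differed by 0.03 and 0.22 in stretched and by 0.09 and 0.46 in shortened tissue, none past the threshold, and the mean of the 3 probes by 0.04 and 0.03, so the probes of this gene disagree.

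Tgfbr3, betaglycan, is the coreceptor that presents ligand, above all TGF-beta2, to the type II receptor. Its centred signal ranged from 0.05 to 1.46 in stretched tissue ex vivo and from 0.11 to 1.45 in vivo, and from 0.51 to 1.34 in shortened tissue ex vivo and 0.40 to 1.69 in vivo. The groups overlapped widely. The difference was 0.17 ± 0.31 in stretched (95% interval -0.50 to 0.84, limma adjusted p = 0.653) and -0.16 ± 0.26 in shortened tissue (-0.71 to 0.40, adjusted p = 0.602), and on deposited values it was -0.28 and -0.62.

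Of the 4 latency proteins Ltbp1, which crosslinks latent TGF-beta to the matrix and is needed for its release by integrins, rose most clearly. In stretched tissue its centred signal was 3.62, 3.57, 3.26 and 3.08 ex vivo, against 1.64 to 2.38 with a median of 2.15 in vivo. Shortened tissue had 3.603, 3.03, 3.15 and 3.39 ex vivo, against 2.16 to 2.63 with a median of 2.35 in vivo. Every ex vivo sample was above every in vivo sample in both tissues on these centred values. Ltbp1 rose by 1.29 ± 0.15 in stretched (fold 2.44, limma adjusted p = 7.5e-06) and by 0.93 ± 0.12 in shortened tissue (fold 1.9, adjusted p = 2.31e-05). On deposited values it rose as well, by 0.84 and 0.46 (adjusted p = 0.00011 and 0.00351), but the groups overlapped in shortened tissue.

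Ltbp2, the member that binds fibrillin but not latent TGF-beta, had values below the array medians. In stretched tissue its centred signal was -0.997, -1.25, -0.85 and -1.36 ex vivo, against -2.77 to -1.98 with a median of -2.07 in vivo. In shortened tissue it was -1.69, -1.68, -1.39 and -1.79 ex vivo, against -3.37 to -1.86 with a median of -2.50 in vivo. The ex vivo samples were higher without overlap, in shortened tissue by a small gap. Ltbp2 rose by 1.17 ± 0.18 in stretched (fold 2.25, limma adjusted p = 9.82e-05) and by 0.96 ± 0.23 in shortened tissue (fold 1.94, adjusted p = 0.00237). On deposited values the difference was 0.72 in stretched (adjusted p = 0.0022) and 0.50 in shortened tissue (adjusted p = 0.0538), where the groups overlapped.

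Ltbp3, which binds latent TGF-beta and is known for its role in bone and teeth, fell. Its centred signal was 2.69, 2.51, 2.11 and 2.24 in stretched tissue ex vivo, against 2.37 to 3.52 with a median of 3.31 in vivo. Shortened tissue gave 2.17, 2.77, 1.83 and 2.25 ex vivo, against 2.59 to 3.29 with a median of 3.13 in vivo. The groups overlapped in both tissues, in stretched tissue through the low in vivo animal 1, but on deposited values they overlapped in neither. Ltbp3 fell by 0.85 ± 0.20 in stretched (fold 0.557, limma adjusted p = 0.00236) and fell by 0.73 ± 0.17 in shortened tissue (fold 0.604, adjusted p = 0.00242), and its second probe differed by -1.27 and -0.94. The calls ended against in vivo animals 1 to 3 alone, the set with a Gapdh difference of 0.11 to 0.27 (-0.60 and -0.46, adjusted p = 0.0691 and 0.0516), and without the animals whose pieces differed most in muscle (-0.56 and -0.42, adjusted p = 0.140 and 0.131). With muscle content as a covariate on all samples the calls of Ltbp3 stayed in both tissues.

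Ltbp4, a protein of elastic fibres in lung and skin that binds TGF-beta1 only, fell in stretched tissue. Its centred signal there was 0.32, 0.08, -0.02 and 0.14 ex vivo, against 0.21 to 1.78 with a median of 0.95 in vivo. In shortened tissue it was 0.17, 0.52, 0.70 and 0.20 ex vivo, against 0.36 to 1.34 with a median of 0.68 in vivo. The groups overlapped in both tissues, but on deposited values in neither. The difference was -0.83 ± 0.26 in stretched (fold 0.564, limma adjusted p = 0.0152) and -0.40 ± 0.18 in shortened tissue (adjusted p = 0.0641). Without the animals whose pieces differed most in muscle that in stretched tissue was -0.82 with adjusted p = 0.139. With muscle content as a covariate it was -0.795 and passed. On deposited values the difference in shortened tissue was -0.86 with adjusted p = 0.00142. The difference in shortened tissue also passed without in vivo animal 6 (-0.47, limma adjusted p = 0.0275) or ex vivo animal 3 (-0.50, adjusted p = 0.0401). Over all members the groups did not overlap on centred values for 6 of 10 in stretched and 7 of 10 in shortened tissue, where 46.4% and 52.2% of all probes did not.

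Between stretched and shortened pieces of the same animal, Ltbp2 was the member with the largest mean difference in either setting and the smallest p ex vivo, higher in the stretched piece in 4 of 4 ex vivo and 6 of 7 in vivo animals. In vivo Ltbp1 was lower in the stretched piece in 7 of 7 animals. No member passed the threshold in either setting, where 0% of probes did so ex vivo and 0% in vivo. At an unadjusted p under 0.05 stood 1 of 10 members ex vivo (Ltbp2) and 6 of 10 in vivo (higher Ltbp2 and Ltbp3, lower Tgfb2, Tgfb3, Tgfbr2 and Ltbp1). Over all probes 11.1% (2508, with 5.23% higher and 5.85% lower) did so ex vivo and 19.3% (4373, with 7.95% higher and 11.4% lower) in vivo. The median difference of the 10 members was 0.13 ex vivo and -0.09 in vivo, against 0.01 and -0.01 over all genes.

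**Figure D3:**
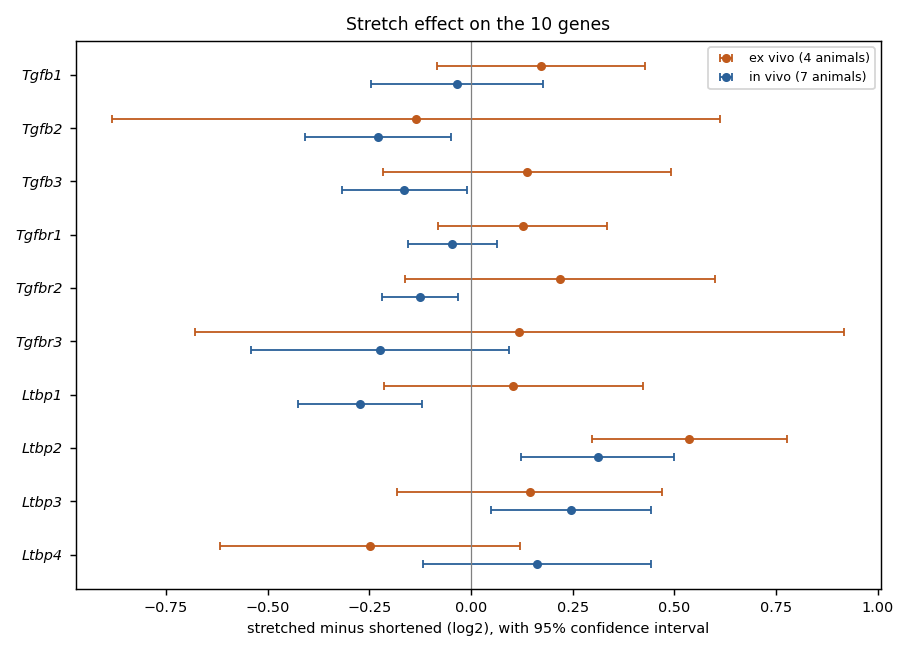
Stretched minus shortened difference (x axis, log2) of each gene (y axis) within animals, as limma estimate with 95% confidence interval, ex vivo (4 animals, orange) and in vivo (7 animals, blue). The interval of Ltbp2 lies above 0 in both settings (0.30 to 0.78 ex vivo, 0.12 to 0.50 in vivo), and that of Ltbp1 below 0 in vivo and across 0 ex vivo.

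Ltbp2 had a log2 signal of 5.89, 5.62, 6.05 and 5.53 in stretched pieces ex vivo, against 5.21, 5.19, 5.47 and 5.06 in the shortened pieces of the same animals. The stretched group lay wholly above the shortened group, by pair differences of 0.67, 0.43, 0.58 and 0.47. The mean difference was 0.54 ± 0.10 (SE, fold 1.45, limma adjusted p = 0.352). When all 22 samples shared 1 estimate of spread, the adjusted p was 0.0188, and 661 probes passed in place of 0. In vivo the signal was 4.54 to 5.31 with a median of 5.22 in stretched pieces, against 3.98 to 5.45 with a median of 4.81 in shortened pieces. The groups overlapped, and in animal 7 the stretched piece was lower by 0.15. The in vivo difference was 0.31 ± 0.08 (fold 1.24, limma adjusted p = 0.172).

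Ltbp1 had a log2 signal of 9.02 to 9.68 with a median of 9.48 in stretched pieces in vivo, against 9.56 to 9.94 with a median of 9.65 in shortened pieces. The groups overlapped, yet every pair went the same way, with differences from -0.55 to -0.03. The mean difference was -0.27 ± 0.07 (fold 0.828, limma adjusted p = 0.172). Ex vivo the pairs of Ltbp1 split, with 0.54 and 0.16 in animals 2 and 3 and -0.01 and -0.28 in animals 1 and 4, and a mean of 0.10 ± 0.13 (adjusted p = 0.809). Ltbp3 differed by 0.14 ± 0.14 ex vivo (3 of 4 pairs higher, 0.03 without animal 1) and 0.25 ± 0.09 in vivo (6 of 7, limma adjusted p = 0.190), and its second probe by 0.04 and 0.35. Ltbp4 differed by -0.25 ± 0.15 ex vivo, lower in 3 of 4 pairs, and by 0.16 ± 0.13 in vivo, higher in 5 of 7 (limma adjusted p = 0.595 and 0.512), and the in vivo mean was 0.30 without animal 1 and 0.08 without animal 3.

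No ligand passed the threshold with stretch. Tgfb1 was higher in the stretched piece in 4 of 4 ex vivo pairs, by 0.13, 0.07, 0.47 and 0.02, with a mean of 0.17 ± 0.11 (limma adjusted p = 0.593, and 0.07 without animal 3). In vivo it was lower in 6 of 7 pairs, by 0.04 to 0.26 in size, and higher by 0.60 in animal 7, with a mean of -0.04 ± 0.10 (adjusted p = 0.878). Without animal 7 the in vivo mean of Tgfb1 was -0.14 (adjusted p = 0.165). The Gapdh difference of animal 7 was 0.87 in the stretched and 2.96 in the shortened piece, the widest gap of the in vivo pairs, and Tgfb3, Tgfbr3 and Ltbp2 also went against most other pairs in it. The part of RNA quality in this was not tested. Tgfb2 ex vivo ran from -1.12 in animal 3 to 0.98 in animal 4, so its mean of -0.14 ± 0.31 (95% interval -0.88 to 0.61, limma adjusted p = 0.907) says little. In vivo Tgfb2 was lower in 5 of 7 pairs, by -0.23 ± 0.08 on average (limma adjusted p = 0.187), and its other 2 probes differed by -0.19 and -0.22. Tgfb3 was higher in 3 of 4 pairs ex vivo (0.14 ± 0.15, adjusted p = 0.767) and lower in 6 of 7 in vivo (-0.17 ± 0.07, limma adjusted p = 0.233). Its in vivo value was -0.29 in animals 1 to 3, with a low Gapdh difference in both pieces, and -0.07 in animals 4 to 7, among them the 1 higher pair of Tgfb3, that of animal 7 (0.22). Without ex vivo animal 1 its ex vivo mean was 0.006.

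Among the receptors Tgfbr1 differed by 0.13 ± 0.09 ex vivo and -0.05 ± 0.05 in vivo, with 95% intervals of -0.08 to 0.34 and -0.16 to 0.06. Tgfbr2 differed by 0.22 ± 0.16 ex vivo (3 of 4 pairs higher, limma adjusted p = 0.650, and 0.04 without animal 2) and by -0.13 ± 0.04 in vivo (6 of 7 pairs lower, limma adjusted p = 0.177). The other 2 probes of Tgfbr2 differed by -0.08 and -0.31 ex vivo and by -0.04 and -0.09 in vivo. Tgfbr3 had pair differences of -1.32, 0.66, 0.62 and 0.51 ex vivo, so that animal 1 stood against the other 3, with a mean of 0.12 ± 0.33 that is 0.60 without animal 1 and below 0 without any 1 of the others. In vivo the pairs of Tgfbr3 ran from -0.61 to 0.68, the highest in animal 7, with a mean of -0.22 ± 0.14 (limma adjusted p = 0.416) that was -0.37 without animal 7.

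Muscle RNA differed between the 2 pieces in some animals. The muscle list mean was higher in the stretched piece by 5.524 and 5.655 in ex vivo animals 3 and 4. It differed by -0.64 and 0.17 in ex vivo animals 1 and 2. In vivo this difference ran from 0.08 in animal 1 to 6.09 in animal 5. On average all 10 skeletal muscle markers were higher in stretched pieces, with a median of 2.56 ex vivo and 2.23 in vivo, none past the threshold. Among them were the fast myosin Myh4 (4.07 ± 1.15 and 2.76 ± 0.71) and the skeletal actin Acta1 (1.91 ± 1.14 and 2.22 ± 0.60). The muscle list mean was 5.15 to 12.2 in stretched and 5.38 to 6.54 in shortened pieces ex vivo, and 5.09 to 12.9 in stretched and 4.91 to 12.2 in shortened pieces in vivo. With muscle content as a covariate Ltbp2 differed by 0.56 ex vivo and 0.31 in vivo and Ltbp1 by -0.23 in vivo. Without the animals whose pieces differed most in muscle these values were 0.55, 0.28 and -0.28. The ex vivo value of 0.55 then rests on animals 1 and 2 alone. With the covariate 1912 probes ex vivo and 1316 in vivo had an unadjusted limma p under 0.05, against 2508 and 4373 without it. Fibroblast markers were lower in stretched pieces in 10 of 10 genes in vivo, by a median of -0.18, and 4 of 10 ex vivo (median 0.04), and macrophage markers in 8 of 8 and 7 of 8 (medians -0.16 in vivo and -0.15 ex vivo). The part of fibroblast and macrophage content in these results was not tested. Other lists moved with stretch in vivo too, with no gene past the threshold. Pericyte and smooth muscle markers were higher in 3 of 7 genes ex vivo and 7 of 7 in vivo (medians -0.05 and 0.43), adipocyte markers in 5 of 6 and 6 of 6 (0.13 and 0.50) and endothelial markers in 5 of 8 and 7 of 8 (0.07 and 0.38), with Pecam1 at 0.03 ± 0.20 and 0.32 ± 0.14. Schwann cell markers were lower in 2 of 4 genes ex vivo and 4 of 4 in vivo (medians -0.09 and -0.36). Medians of neutrophil, mast cell, platelet and keratinocyte markers were -0.10, -0.35, 0.01 and -0.02 ex vivo and -0.05, -0.03, 0.003 and 0.07 in vivo. The part of these cell types was not tested either.

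The test of whether stretch acted differently in the settings called 0.177% of probes (40, with 0.0486% higher and 0.128% lower) and none of the 10 members, and the 40 became 0 to 663 with any 1 animal left out. At an unadjusted p under 0.05 stood 2 members, both higher on the probe chosen for the gene, against 15.3% of probes (8.56% higher, 6.74% lower). Ltbp1 had a stretch effect that was 0.38 ± 0.15 higher ex vivo than in vivo (95% interval 0.06 to 0.69, limma adjusted p = 0.246), and Tgfbr2 one that was 0.35 ± 0.15 higher (limma adjusted p = 0.293). The other 2 probes of Tgfbr2 gave -0.04 and -0.22 for this difference, so only 1 of its 3 probes was higher. Tgfb3 had a difference of 0.30 ± 0.15, Tgfb1 of 0.21 ± 0.15 and Ltbp2 of 0.23 ± 0.13 (limma adjusted p = 0.359, 0.562 and 0.440). Ltbp4 had the lowest, -0.41 ± 0.22 (adjusted p = 0.392), and 8 of 10 members were above 0, with a median of 0.22 against 0.01 over all genes.

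Other genes of the pathway were taken from 3 lists. Of 15 SMADs and intracellular regulators, 9 rose and 4 fell ex vivo in stretched tissue and 10 rose and 3 fell in shortened tissue, with medians of 0.41 and 0.39. Over all 12393 genes 3962 rose and 4037 fell in stretched and 4132 rose and 4217 fell in shortened tissue. The corepressor gene Tgif1, whose protein binds SMADs on DNA, rose by 3.19 ± 0.16 in stretched and 3.15 ± 0.13 in shortened tissue (fold 9.11 and 8.89, limma adjusted p = 4.68e-09 and 4.58e-10). The inhibitory Smad6 fell (-2.38 ± 0.13 and -2.26 ± 0.18), as did Pmepa1, a TGF-beta target whose product holds back SMAD2 and SMAD3 (-1.70 ± 0.23 and -1.75 ± 0.19). The corepressor Ski fell as well (-0.84 ± 0.11 and -1.3 ± 0.11). Nedd4l, a ubiquitin ligase for activated SMADs, rose by 0.74 ± 0.13 and 1.06 ± 0.11, Fkbp1a, whose product binds the type I receptor, by 0.63 ± 0.09 and 0.61 ± 0.11, and the common partner Smad4 by 0.43 ± 0.12 and 0.55 ± 0.08. On deposited values Smad4 differed by -0.02 and 0.09 and Fkbp1a by 0.18 and 0.14, and the median of the 15 genes was -0.03 in stretched and -0.08 in shortened tissue.

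Of 23 activators and anchors of latent TGF-beta, 8 rose and 9 fell in stretched and 7 rose and 10 fell in shortened tissue, with medians of 0.09 and -0.04 (-0.35 and -0.5 on deposited values). Thbs1, thrombospondin, which activates latent TGF-beta by binding its propeptide, rose by 3.10 ± 0.24 in stretched and 3.30 ± 0.21 in shortened tissue (fold 8.59 and 9.84, limma adjusted p = 2.36e-07 and 2.35e-08). Furin, the protease that cuts the propeptide, rose by 1.29 ± 0.13 and 1.37 ± 0.13. Asporin, Aspn, a small proteoglycan that binds TGF-beta1, fell (-5.05 ± 0.19 and -4.51 ± 0.23, limma adjusted p = 6.1e-10 and 3.76e-09). Nrros, which tethers latent TGF-beta on cells of the macrophage lineage, fell too (-2.96 ± 0.20 and -3.34 ± 0.18), beside the fall of the macrophage markers given above. Fibronectin, Fn1, to which Ltbp1 binds, fell (-1.21 ± 0.12 and -1.09 ± 0.08). So did Bmp1, a protease that cuts Ltbp1 (-1.43 ± 0.15 and -2.01 ± 0.13), Mmp9, a gelatinase that can release latent ligand (-3.29 ± 0.36 and -3.59 ± 0.18), and the integrin subunit gene Itgb5 (-1.37 ± 0.16 and -1.52 ± 0.10).

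Of 18 genes known to be induced by TGF-beta, 6 rose and 7 fell in stretched and 8 rose and 6 fell in shortened tissue, with medians of 0.01 and 0.39 (-0.43 and -0.07 on deposited values). The protease inhibitor Timp1 rose by 3.97 ± 0.18 in stretched and 3.49 ± 0.14 in shortened tissue (fold 15.7 and 11.2, limma adjusted p = 2.49e-09 and 3.95e-10), and tenascin C, Tnc, a matrix protein of injured tissue, by 3.46 ± 0.20 and 3.62 ± 0.15. Snai1, a transcription factor of epithelial to mesenchymal transition, rose by 1.66 ± 0.20 and 1.36 ± 0.13, and the cytokine gene Il11 by 1.94 ± 0.24 and 1.39 ± 0.15. Tgfbi, a matrix protein named for its induction by TGF-beta, fell (-2.66 ± 0.16 and -2.35 ± 0.08). The NADPH oxidase gene Nox4 (-1.77 ± 0.21 and -1.87 ± 0.17) and the collagen gene Col1a2 (-0.75 ± 0.11 and -0.59 ± 0.06) fell as well. Members of this list thus lay far to either side of 0 in both tissues.

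**Figure D4:**
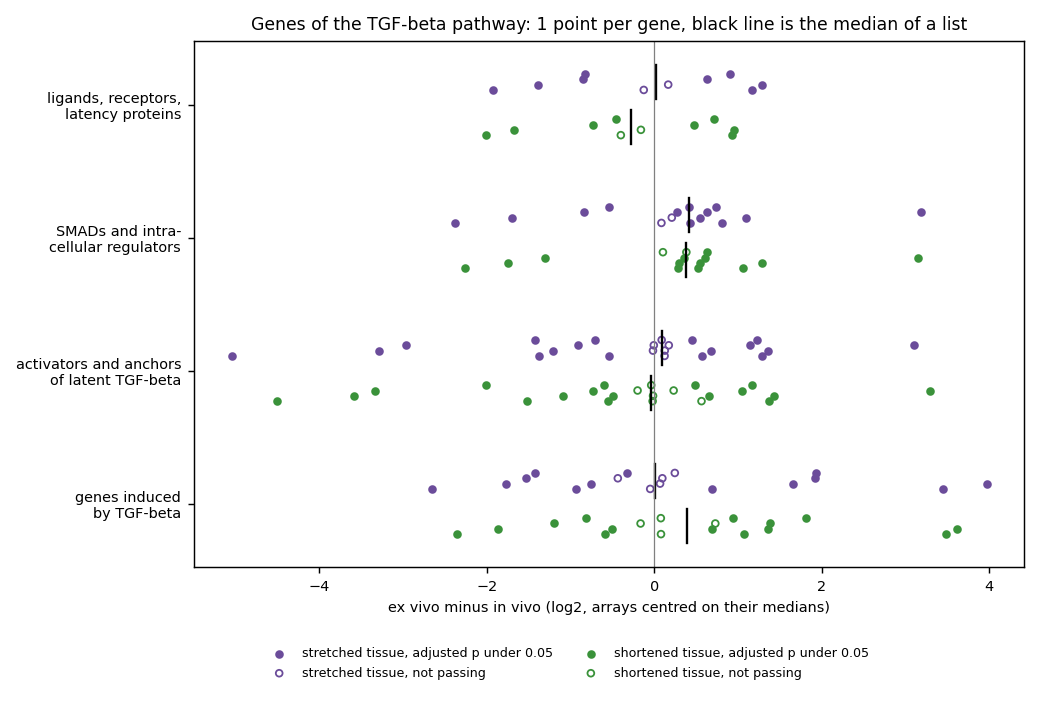
Ex vivo minus in vivo difference (x axis, log2, centred arrays) of each gene in 4 lists (y axis: 10 ligands, receptors and latency proteins, 15 SMADs and regulators, 23 activators and anchors, 18 induced genes), 1 point per gene, filled where the adjusted p is under 0.05, black lines for list medians (ex vivo 4 and in vivo 7 samples per tissue). The members lie between -2.01 and 1.29, inside the spread of the other lists, which reach 3.97 for Timp1 and -5.05 for Aspn in stretched tissue.

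With stretch none of the genes of these lists passed the threshold. Ex vivo the smallest p values of the lists belonged to Smad7, the inhibitory SMAD induced by the pathway (-0.41 ± 0.10), and Ski (0.30 ± 0.12), to the proteoglycan Bgn (0.23 ± 0.08) and the microfibril protein Emilin1, which limits processing of the precursor (0.30 ± 0.11), and to Timp1 (0.48 ± 0.09) and periostin, Postn (-0.66 ± 0.15). In vivo they belonged to Ski (-0.18 ± 0.06) and the endothelial type I receptor Acvrl1 (-0.18 ± 0.07), to Bmp1 (-0.28 ± 0.07) and the protease Mmp14 (-0.18 ± 0.05), and to Nox4 (-0.34 ± 0.09) and Tgfbi (-0.16 ± 0.05). The adjusted p of these genes was 0.352 to 0.433 ex vivo and 0.172 to 0.215 in vivo in the limma fits. For the difference of the stretch effect, ex vivo minus in vivo, they were Ski (0.47 ± 0.12) and Smad7 (-0.28 ± 0.12), Bmp1 (0.61 ± 0.14) and the protease Plau (0.50 ± 0.13), and Tsc22d1 (-0.58 ± 0.13) and Postn (-0.69 ± 0.17), with adjusted p from 0.0802 to 0.284.

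Over the 22 samples, after subtraction of each setting's mean, the gene most like Tgfb1 was the lysosomal protease gene Ctsd (Pearson r = 0.88, Spearman rho = 0.87), followed by Fkbp8 (r = 0.88, rho = 0.88) and the histone methyltransferase gene Ehmt2 (r = 0.87, rho = 0.89). Most like Tgfb2 were Limch1 (r = 0.80, rho = 0.78), the transcription factor gene Zeb1 (r = 0.78, rho = 0.81) and the telomere protein gene Terf2 (r = 0.78, rho = 0.74). Most like Tgfb3 were Pkdcc (r = 0.83, rho = 0.65), Ganab (r = 0.81, rho = 0.74) and Ambra1 (r = 0.81, rho = 0.78). Among the members themselves the highest r was that of Ltbp1 with Tgfbr2 (0.77, rho = 0.74) and the lowest that of Tgfbr1 with Tgfbr3 (-0.67, rho = -0.63), of 45 pairs. The mean of the muscle markers had r = 0.56 with Ltbp2 and -0.32 with Ltbp1. These correlations describe 22 arrays from 11 animals, whose pieces share an animal, RNA quality and muscle content.

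The genes lie on chromosome 7 (Tgfb1, 25687002 to 25705077, and Ltbp4, 27305140 to 27339720), chromosome 1 (Tgfb2, 186622787 to 186709697), chromosome 12 (Ltbp2, 84783212 to 84876558, and Tgfb3, 86056743 to 86079041), chromosome 17 (Ltbp1, 75005480 to 75392512) and chromosome 19 (Ltbp3, 5740900 to 5758536). The receptors lie on chromosome 4 (Tgfbr1, 47353222 to 47414926), chromosome 9 (Tgfbr2, 116087695 to 116175363) and chromosome 5 (Tgfbr3, 107106567 to 107289629), all in build GRCm38.p6 of the RefSeq gene table.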

How the data were processed

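RNA of 22 samples was extracted with Tri-Reagent and labelled with biotin, per the labels' protocols. The authors made the log2 signals with RMA and the affy package, per the submitters' processing notes, which give no versions. The deposited log2 values look normalized separately for the in vivo and ex vivo arrays, since the array medians of the settings do not meet. No arrays held identical values. Of 22690 probes, 64 controls were left out, 20380 had 1 gene symbol, 691 several and 1555 none in the supplied table of probes and genes.

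Each comparison was fitted over all 22626 probes with limma 3.58.1 in R 4.3.3 (lmFit, eBayes with a trend), with Benjamini-Hochberg adjustment and calls at 0.05. The stretch effect (stretched minus shortened) came from deposited values with animals as blocks, its difference between settings from all 22 samples and 11 animals, and ex vivo minus in vivo on arrays centred on their medians, without a block because the animals differ. The code was tested on simulated data. Samples of 1 number were paired because the design is within animals: their deviations from group means correlated with r of 0.385 to 0.867 in vivo and 0.109 to 0.284 ex vivo. The stretched pieces of in vivo animal 5 and ex vivo animal 4 correlated more with a shortened piece of another number. Motifs and figures were made with Python 3.11.15, pandas 2.3.3, numpy 2.4.6 and matplotlib 3.10.9. The number of arrays limits the precision.

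The members, the gene lists and the tests were chosen with earlier results of these data known. Named are all members, from each pathway list up to 6 genes per comparison with the smallest p among those past the threshold (otherwise 2 as values), Acta1, Myh4, Pdgfra and Pecam1 as markers, and the 3 genes most like each ligand by Pearson r. Marker lists were read for skeletal muscle, fibroblasts, macrophages, adipocytes, endothelial cells, pericytes and smooth muscle, neutrophils, mast cells, platelets, keratinocytes and Schwann cells. Alternatives covered the scaling, a filter on probes with a mean below 6, eBayes without a trend, muscle content as a covariate, left-out animals, other sample sets, no block, and the mean of a gene's probes. The genes Smurf1, Smurf2, Zfyve9, Tgfbrap1, Fbn1, Itgb8 and Lrrc32 are not analysed here.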

Additional observations from a re-analysis of the deposited data

Results flagged for a closer look

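In 3 of the 40 groups of member values 1 sample lay far from the others of its group, a gap large against the group's whole range, where chance alone gives about 1 in 20 groups. Tgfb2 was highest in the shortened piece of ex vivo animal 3, with a log2 signal of 6.52 against 5.81 in the next sample. Tgfbr1 was highest in the shortened piece of ex vivo animal 4, with 10.05 against 9.71 in the next. Ltbp3 was lowest in the stretched piece of in vivo animal 1, with 9.69 against 10.60 in the next.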

How the results depend on the processing

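The limma calls of Tgfb2, Tgfb3 and Ltbp1 between the settings kept their direction and passed under every alternative run in both tissues, from -2.47 to -1.93 for Tgfb2, -2.14 to -1.30 for Tgfb3 and 0.46 to 1.54 for Ltbp1, and also with any 1 sample left out. Directions turned mostly where values were small. With muscle content as a covariate the stretch effect was 0.009 for Tgfb1 and -0.028 for Ltbp4 in vivo, and -0.35 for Tgfbr3 ex vivo. Without the animals whose pieces differed most in muscle it was 0.034 for Tgfb1 in vivo and -0.33 for Tgfbr3 ex vivo, the difference of the stretch effects was -0.17 for Tgfbr3, and ex vivo minus in vivo in stretched tissue was 0.064 for Tgfbr2 and -0.22 for Tgfbr3. For Tgfbr3 in stretched tissue deposited values gave -0.28 and in vivo animals 1 to 3 alone -0.24. The mean of all probes of Tgfbr2 gave -0.057 for the stretch effect ex vivo, and 0.04 and 0.03 for ex vivo minus in vivo in stretched and shortened tissue. In shortened tissue against in vivo animals 1 to 3 alone, an alternative chosen after seeing the data, Tgfbr3 was -0.62 (adjusted p = 0.014) and Ltbp4 -0.69 (adjusted p = 0.0054), and 9 members passed. For these the cause was not tested.

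Leaving out 1 animal turned Tgfb1 in vivo (-0.141 to 0.002), Tgfb2 (-0.51 to 0.19), Tgfbr3 (-0.06 to 0.60) and Ltbp1 (-0.041 to 0.231) ex vivo, the difference of the stretch effects of Tgfb2 (-0.28 to 0.42) and Ltbp3 (-0.219 to 0.035), and ex vivo minus in vivo of Tgfbr2 in stretched tissue (-0.219 to 0.026). Ltbp4 in shortened tissue passed without in vivo animal 6 (-0.47, adjusted p = 0.0275) or ex vivo animal 3 (-0.50, adjusted p = 0.0401). Left-out samples gave 8 to 9 called members in shortened and 8 in stretched tissue.

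Of the counts over all probes, limma called 0 for stretch in both settings under all alternatives except all 22 samples in 1 fit (661 ex vivo). The 40 calls of the difference of the stretch effects became 5 with quantile normalization, 74 with probes of a mean of at least 6, 4 without a trend, 8 with the muscle covariate, 9 without the animals whose pieces differed most in muscle, and 0 to 663 with any 1 of the 11 animals left out, each of which moved it by over 1.5 times (0 without in vivo animal 2 or ex vivo animal 3, 663 without ex vivo animal 1, 331 without ex vivo animal 4). None of the 10 members was among the calls. With no replicate block that count was 3, and the stretch comparisons had 0 calls, with 2173 probes ex vivo and 1080 in vivo at an unadjusted p under 0.05. The block, which pairs the pieces of an animal, changed no call of a member. Between the settings the 14372 calls in stretched tissue became 9451 with probes of a mean of at least 6, where fewer probes (14443) were tested. Ltbp2 has a mean below that filter and was not tested under it.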
